A study of Mus musculus with 35 samples.

Results

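The transcripts described here encode 10 subunits of the receptors for interleukins and interferons: Il6ra, Il6st, Il10ra, Il10rb, Il4ra, Il13ra1, Ifngr1, Ifngr2, Ifnar1 and Ifnar2. They were picked by symbol, not by a threshold on their values, and all 10 were found among the 21236 genes of the deposited count table. RNA was sequenced from microglia, the resident macrophages of the brain, that had been sorted from the midbrain, the striatum and the prefrontal cortex (PFC) of adult mice to ask how microglia differ between regions and between the sexes. Every mouse carried Tmem119-2A-CreERT2 together with the Cre-dependent reporter Ai14(RCL-tdTomato)-D and received tamoxifen, so that cells expressing Tmem119 became red and could be sorted, and there was no group without the transgenes or without tamoxifen. The Tmem119 promoter drives the Cre, so microglia without Tmem119 were not sampled. Samples came from 6 male and 6 female mice, which gave 12 samples of the midbrain, 12 of the striatum and 11 of the PFC, 5 of these from males, for 35 in all.

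A cytokine receptor of this family is built from 2 kinds of chain. Il6ra encodes the chain that binds interleukin-6 (IL-6), and Il6st encodes gp130, the signalling chain that IL-6 shares with oncostatin M, leukaemia inhibitory factor and other cytokines. Il10ra encodes the ligand-binding chain for IL-10, and Il10rb its partner, which other cytokines of the IL-10 family also use. Il4ra encodes the chain that binds IL-4, and pairs with the product of Il13ra1 to form a receptor for both IL-4 and IL-13. Ifngr1 and Ifngr2 encode the receptor for interferon-gamma, and Ifnar1 and Ifnar2 the receptor for type I interferons. All of these receptors signal through Janus kinases (JAK) and the STAT transcription factors. Microglia are known for responses to each of these ligands.

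Total counts ran from 37680501 to 54131421 per sample and each member had at least 1830 counts in every sample, where 3 counts correspond to 0.0561 to 0.0789 CPM. CPM are counts relative to the total of a library, scaled with TMM, which corrects library sizes for composition. Markers of microglia were present throughout, and 14 of them summed to between 46862 and 60090 CPM. This sum varied with region too, at 49835.5 ± 2211 CPM (SD) for midbrain, 55130 ± 2758 for striatum and 53857 ± 2301 for PFC. The striatum was above the midbrain in 11 of 12 mice, and 5 of the 14 markers had an effect of region (edgeR adjusted p under 0.05), beside 8.89% of all genes. Markers of other cells were low but not absent, and several varied with region. The sum of 10 astrocyte markers over midbrain (n = 12), striatum (n = 12) and PFC (n = 11) was 254 ± 18.9, 378 ± 60.0 and 377 ± 74.4 CPM (SD). For 10 oligodendrocyte markers the sum was 404 ± 63.8, 492 ± 159 and 339 ± 98.2 CPM in the same order. Its highest value, in a striatum sample, was 881 CPM, and 3 of these 10 markers had an effect of region. Striatum exceeded PFC for this sum in 11 of 11 mice, and exceeded midbrain in 8 of 12. The sum of 8 markers of border-associated macrophages was 106 ± 36.5, 139 ± 28 and 109 ± 14.3 CPM in the same order. Of that sum Stab1 alone made up a mean of 108 CPM, while Mrc1, Cd163 and Pf4, which define these macrophages, had means of 4.50, 0.059 and 0.74 CPM. The 14 neuronal markers measured summed to at most 36.6 CPM in any sample. Genes that respond to tissue dissociation, such as Fos and Jun, were abundant. The sum of 12 such genes was 36982 ± 6221 CPM (SD) for midbrain, 34636 ± 7894 for striatum and 35525 ± 5453 for PFC. Of these 12, 0 had an effect of region. Whether dissociation changed the levels of the members or of their ligands was not tested. One column of the table is named for the PFC of mouse 3 while its sample is labelled as striatum, and it was used as labelled. Results that rest on the striatum were also computed without it. Fewer cells of a type and less RNA per cell cannot be told apart in such data.

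The members covered a wide range of levels. Divided by the length of their exons, the mean levels over the 35 samples ran from 399.8 ± 57.5 CPM per kb (SD) for Ifngr1 to 9.72 ± 1.48 CPM per kb for Ifnar1, a ratio of 41.1. All 10 lay between the 80.1 and the 99.5 percentile of the 21103 genes with a known length. Ifngr1 was followed by Il10ra at 228 ± 28.2 CPM per kb, and Ifngr1 was the higher of these in 35 of 35 samples. Then came Il13ra1 at 89.4 ± 8.0, Ifngr2 at 76.2 ± 8.18 and Ifnar2 at 67 ± 4.80 CPM per kb. The ranges of mean ± SD overlapped between Il13ra1 and Ifngr2 and between Ifngr2 and Ifnar2, although within samples Il13ra1 exceeded Ifngr2 in 34 of 35 and Ifngr2 exceeded Ifnar2 in 30 of 35. Il10rb at 45.0 ± 5.68 and Il4ra at 38.9 ± 8.05 CPM per kb overlapped as well, with Il10rb the higher in 26 of 35. Il6st stood at 21 ± 5.42 CPM per kb. Il6ra, at 10.5 ± 2.41 CPM per kb, was not separated from Ifnar1, which it exceeded in 20 of 35 samples. Thus the most and the least abundant members were both interferon receptor chains, and the chains for IL-6 were in the lower part of the order.

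**Figure D1:**
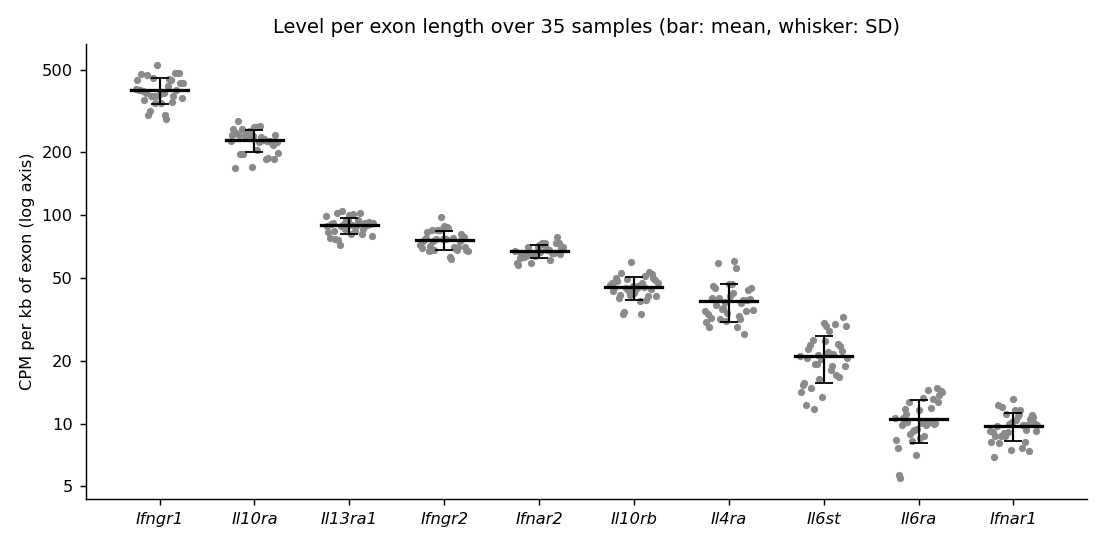
Level of the 10 receptor transcripts in CPM per kb of exon (log axis), ordered by mean. Each grey point is 1 of 35 samples, black bars are means and whiskers are SDs; Ifngr1 and Il10ra stand above the rest, and Il6ra and Ifnar1 overlap at the bottom.

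The genes lie on 7 chromosomes, and 4 of them are neighbours. In GENCODE M21 on GRCm38, Ifnar2 (chr16:91372783-91405589), Il10rb (chr16:91406164-91425834), Ifnar1 (chr16:91485238-91507441) and Ifngr2 (chr16:91547072-91565623) follow each other on the forward strand of chromosome 16. Il6ra is at chr3:89864059-89913196 on the reverse strand, and Il6st at chr13:112464070-112510086 on the forward strand. Il10ra (chr9:45253837-45269149) is on the reverse strand. Il4ra (chr7:125552120-125579474), Ifngr1 (chr10:19591949-19610229) and Il13ra1 (chrX:36112110-36171259) are on the forward strand. Values are counts per gene and do not separate its transcripts. A readthrough gene, Gm21970, shares exons or introns with both Ifnar2 and Il10rb, and antisense genes overlap Il6ra (Gm42809, by 281 bases) and Il4ra (Gm44876). A pseudogene and a microRNA gene lie within Il10ra. The use of strand in the counting is not given in the sources used here, so reads from these overlaps cannot be told apart.

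Brain region had an effect on 1 of the 10 members, Il6ra, at an adjusted p under 0.05 (edgeR quasi-likelihood F-test on region and sex, Benjamini-Hochberg over all genes), beside 8.89% of all genes tested. Without mouse 2 or without mouse 11 the count was 0, and without mouse 1 it was 2. Each mouse gave a sample of every region, except mouse 3, which has none of the PFC. In a fit with a term for each mouse, called the block from here on, 2 of 10 passed, Il6ra and Il6st, beside 14.0% of all genes. For PFC against midbrain, 0 of 10 members and 6.52% of all genes passed in edgeR, and 0 of 10 and 8.19% of 19973 genes in DESeq2. At an unadjusted p under 0.05 in edgeR it was 2 of 10 members and 3607 of 21236 genes. The block gave 1 member, Il6st, and 8.06% of all genes. For striatum against midbrain, 1 of 10 members (Il6ra) and 7.45% of all genes passed, and 1 of 10 and 11.7% with the block. For striatum against PFC, 0 of 10 members and 0.570% of all genes passed in edgeR, and 0 of 10 and 1.82% of 18743 genes in DESeq2. At an unadjusted p under 0.05 in edgeR it was 3 of 10 members and 2467 of 21236 genes. With the block, 2 of 10 (Il6ra and Il6st) and 2.89% of all genes passed. Under cut-offs like those of the study (an adjusted p under 0.05 for region, an unadjusted p under 0.05 for the pair and a fold over 1.2), the 3 pairs gave 0, 1 and 1 members, Il6ra in both cases, beside 5.99%, 6.47% and 3.14% of all genes. Apart from the IL-6 receptor chains, then, none of the members passed for region in these fits, and in PFC against midbrain and striatum against midbrain the share of members called was close to that of all genes. The median log2 fold change of the members was -0.10 for PFC against midbrain, -0.0070 for striatum against midbrain and 0.084 for striatum against PFC, where that of all genes was 0.011, 0.012 and 0.0081.

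**Figure D2:**
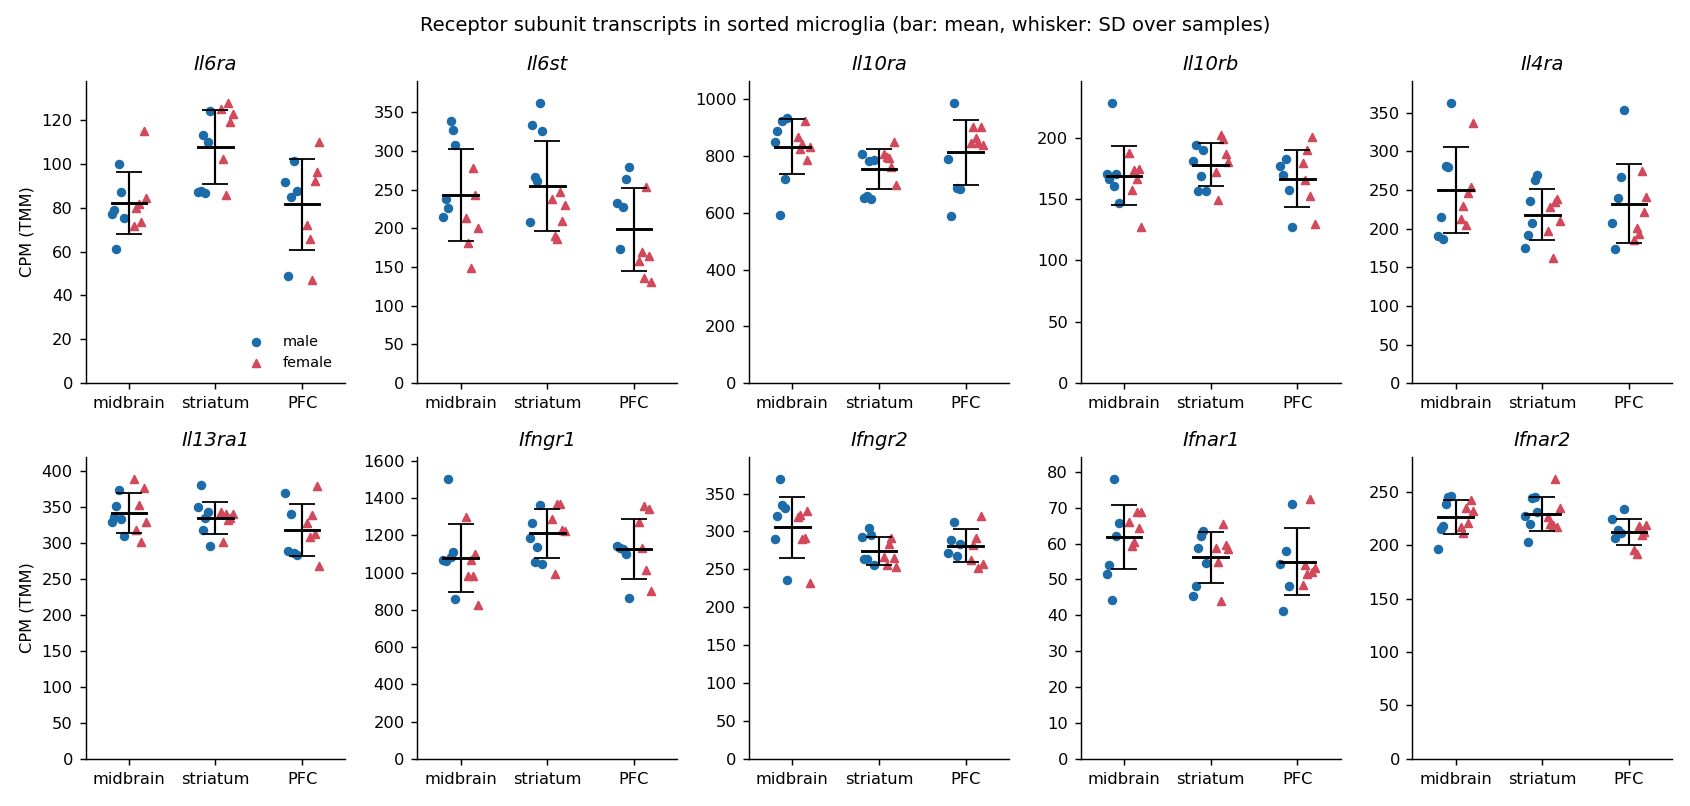
CPM of each member in midbrain, striatum and PFC, with 1 point per sample (blue circles male, red triangles female) and black bars and whiskers for the mean and SD over samples. The ranges of the 3 regions overlap for every member; the striatum stands highest for Il6ra.

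Il6ra had its highest levels in the striatum. In the midbrain its lowest, median and highest values over 12 samples were 61.0, 79.6 and 115 CPM, with a mean of 82.2 ± 14.0 (SD). In the striatum they were 85.8, 112 and 128 CPM, with a mean of 108 ± 16.8 (n = 12). In the PFC they were 47.2, 87.5 and 110.1 CPM, with a mean of 81.6 ± 20.7 (n = 11). The regions overlapped, but within mice the striatum was above the midbrain in 11 of 12 and above the PFC in 10 of 11. The exceptions were male in both cases, and in 6 of 6 females the striatum was the highest of the 3 regions. Its mean in males was 80.0 ± 12.95 CPM for midbrain, 102 ± 16.3 for striatum and 82.8 ± 20.05 for PFC, and in females 84.4 ± 15.8, 114 ± 16.4 and 80.6 ± 23.03, so that each sex showed the same order of striatum over the others.

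The log2 fold change of Il6ra from midbrain to striatum was 0.39 with an SE of 0.11, a fold of 1.31 (edgeR adjusted p = 0.0301, with the block 0.00832), and the effect of region had an adjusted p of 0.0216. From PFC to striatum it was 0.40 with an SE of 0.12, a fold of 1.32, which missed the threshold (edgeR adjusted p = 0.103) and passed it with the block, at 0.45 with an SE of 0.10 (adjusted p = 0.0148). Between PFC and midbrain it was -0.012 with a 95% interval from -0.25 to 0.22. The call against the midbrain was lost without mouse 2, 8, 11 or 12, with adjusted p-values up to 0.0895 and log2 fold changes from 0.34 to 0.45 over the 12 mice left out. Without the striatum sample of mouse 3 it was 0.41 (adjusted p = 0.0276). In mice 1 to 6 alone the change was also 0.41 (adjusted p = 0.205), and in mice 7 to 12 alone 0.36 (adjusted p = 0.0441). As a mean, markers of other brain cells were also highest in the striatum, while summed neuronal markers were highest in the PFC (21.3 ± 7.32 CPM, SD). Whether other cells account for the pattern of Il6ra was not tested. The mean log2 CPM of 43 such markers, of neurons, astrocytes, oligodendrocytes and endothelium, was 0.63 ± 0.46 (SD) for midbrain, 1.5 ± 0.59 for striatum and 0.85 ± 0.79 for PFC. With that mean as a covariate the change from midbrain to striatum was 0.27 with an SE of 0.13 (adjusted p = 0.324), and the effect of region on Il6ra had an adjusted p of 0.257. The summed markers of border-associated macrophages were, like Il6ra, highest in the striatum, and Mrc1, Cd163 and Pf4 were near 0 as given above.

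**Figure D3:**
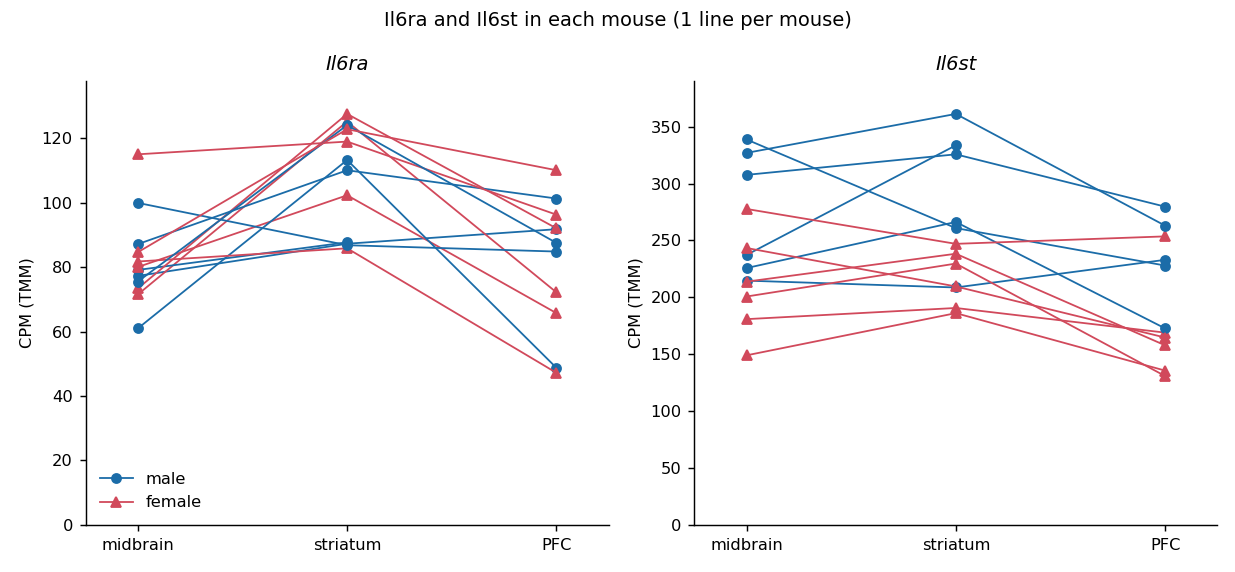
CPM of Il6ra (left) and Il6st (right) in midbrain, striatum and PFC, with 1 line per mouse (blue circles male, red triangles female; mouse 3 has no PFC sample). Il6ra is highest in the striatum in most mice, and Il6st is lower in PFC than midbrain in 10 of 11 mice and lies higher in males.

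Il6st, the shared signalling chain, was lowest in the PFC. Its lowest, median and highest values were 149, 232 and 339 CPM for midbrain, 186, 243 and 361 for striatum and 131, 173 and 279.7 for PFC. The means were 243 ± 58.8 (SD, n = 12), 255 ± 57.8 (n = 12) and 199 ± 53.6 CPM (n = 11). The regions overlapped widely, yet the PFC was below the midbrain in 10 of 11 mice and below the striatum in 9 of 11. The log2 fold change from midbrain to PFC was -0.28 with an SE of 0.11 (edgeR adjusted p = 0.149), and that from PFC to striatum 0.34 with an SE of 0.11 (adjusted p = 0.151). In the fit with the block both passed, at -0.28 with an SE of 0.073 (adjusted p = 0.0155) and 0.35 with an SE of 0.073 (adjusted p = 0.00797), and the effect of region had an adjusted p of 0.00328. Midbrain and striatum differed by 0.065 on the log2 scale, with a 95% interval from -0.15 to 0.28. For Il6ra the fitted difference was thus nearest to 0 between PFC and midbrain, and for Il6st between striatum and midbrain.

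Il6st was also the 1 member of 10 that differed between the sexes, beside 0.339% of all genes (edgeR, adjusted p under 0.05). At an unadjusted p under 0.05 and a fold over 1.2 it was again 1 of 10, beside 4.13% of all genes. The 17 samples from males ran from 173 to 361 CPM with a mean of 269.7 ± 54.5 (SD), and the 18 from females from 131 to 278 CPM with a mean of 199 ± 43.2. The male mean was the higher in each region, at 275 ± 55.4 against 211 ± 45.5 CPM for midbrain, 293 ± 57 against 217 ± 25.4 for striatum and 235 ± 41.0 against 169 ± 44.4 for PFC. Summed microglial markers were 53140 ± 2989 CPM in males and 52702 ± 3664 in females. The log2 fold change of males against females was 0.43 with an SE of 0.089, a fold of 1.35 (edgeR adjusted p = 0.0153). That fit treats the samples of 1 mouse as separate, and with counts summed per mouse the change was 0.45 with an SE of 0.12 (unadjusted p = 0.00173, adjusted p = 0.853 over all genes). Over means per mouse, 4 of 6 males lay above every female, and an exact two-sided permutation test over mice gave an unadjusted p of 0.0108, where 0.00216 is the smallest it can give. The call was lost without mouse 4, 6, 9, 11 or 12, with adjusted p-values up to 0.145 and log2 fold changes from 0.37 to 0.53 over the mice left out. Without the striatum sample of mouse 3 it was 0.42 (adjusted p = 0.030). In mice 1 to 6 alone the change was 0.37 (adjusted p = 0.403), and in mice 7 to 12 alone 0.46 (adjusted p = 0.0769). For the other 9 members the log2 fold change of males against females lay between -0.12 (Il10ra) and 0.094 (Il4ra). Il13ra1, which is on the X chromosome, differed by -0.013 with a 95% interval from -0.10 to 0.078. No member had an interaction of region with sex, where 0% of all genes passed in edgeR, 1 gene in DESeq2, and 632 genes and 0 members had an unadjusted p under 0.05.

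**Figure D4:**
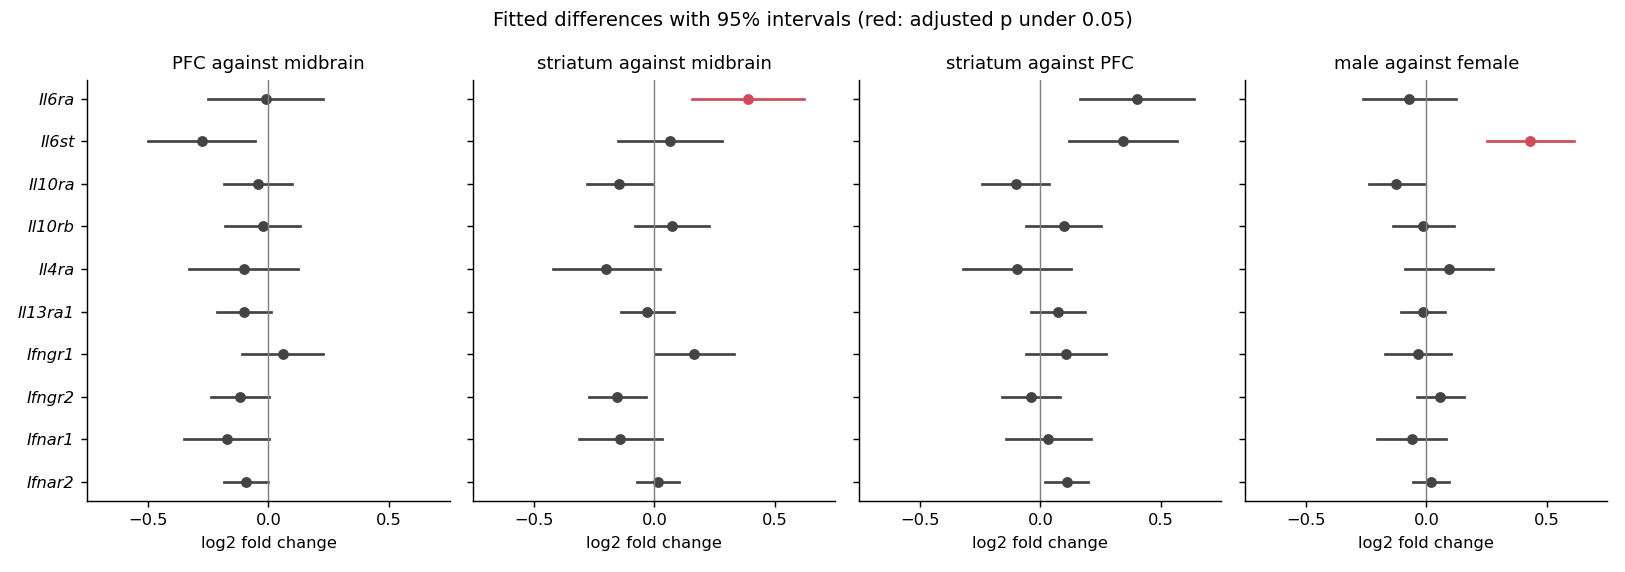
Fitted log2 fold changes (points) with 95% intervals (lines) for the 10 members in 3 pairs of regions and in males against females, from the edgeR fit on region and sex. Red marks an adjusted p under 0.05 over all genes, reached by Il6ra in striatum against midbrain and by Il6st for sex.

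In the fit on region and sex, Il6ra was the only member called for region and Il6st the only member called for sex. The 250 bases before the transcription starts of these genes are therefore shown, from RefSeq's table for GRCm38.p6, in the direction of the gene. The windows are chr3:89913197-89913446 on the reverse strand for Il6ra and chr13:112463820-112464069 on the forward strand for Il6st. Capitals mark a match to GAGGAA, the core of the site of PU.1, a factor of the macrophage lineage. Both strands were searched for it, for the STAT element TTCNNNGAA and for the interferon-stimulated response element, taken as GAAA, any 2 bases and GAAA again.
Il6ra: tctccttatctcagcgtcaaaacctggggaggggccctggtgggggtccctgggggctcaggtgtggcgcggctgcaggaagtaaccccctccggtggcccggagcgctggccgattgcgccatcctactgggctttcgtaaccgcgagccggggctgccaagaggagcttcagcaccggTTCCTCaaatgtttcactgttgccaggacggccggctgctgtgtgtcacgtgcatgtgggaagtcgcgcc
Il6st: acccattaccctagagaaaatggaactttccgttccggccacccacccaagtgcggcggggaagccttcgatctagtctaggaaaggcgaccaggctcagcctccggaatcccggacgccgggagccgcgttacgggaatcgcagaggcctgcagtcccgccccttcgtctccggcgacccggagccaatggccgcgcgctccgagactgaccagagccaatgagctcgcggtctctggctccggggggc

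Both windows were rich in G and C, at 65.2% for Il6ra and 66% for Il6st. Il6ra held GAGGAA once, on the strand opposite to the gene, 70 to 65 bases before the start, and Il6st held none of the 3 motifs. Of the 32851 promoters in the table, 23.3% held GAGGAA, 7.02% held TTCNNNGAA and 2.98% held the interferon-stimulated response element. Of the 8 members found in it, GAGGAA occurred in 2 (Il6ra and Ifnar1), TTCNNNGAA in 1 (Ifnar2) and the interferon-stimulated response element in 0. These are matches of letters only.

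The chains for IL-10 and for IL-4 and IL-13 showed no difference that passed the test. Il10ra was 832 ± 97.1 CPM for midbrain (SD, n = 12), 753 ± 69.9 for striatum (n = 12) and 812 ± 115 for PFC (n = 11). The striatum was below the midbrain in 10 of 12 mice, and the log2 fold change was -0.15 with an SE of 0.067 (edgeR adjusted p = 0.206, with the block 0.0569). Il10rb was 169 ± 23.9, 178 ± 17.6 and 167 ± 23.2 CPM in the same order. Its 95% intervals for the 3 pairs of regions lay between -0.18 and 0.25 on the log2 scale. Il4ra, at 249.7 ± 56, 218 ± 33.0 and 232 ± 51.6 CPM, was the more variable of the chains for IL-4. Its striatum was below its midbrain in 11 of 12 mice, with a log2 fold change of -0.20 and an SE of 0.11 (adjusted p = 0.313, with the block 0.0629). Il13ra1 had means of 341 ± 27.4, 334 ± 22.4 and 318 ± 36.1 CPM and a coefficient of variation of 8.95% over all samples.

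The mean levels of the interferon-gamma receptor chains differed in opposite directions between midbrain and striatum, although neither passed the test alone. Ifngr1, the chain that binds the ligand, had lowest, median and highest values of 826, 1066 and 1502 CPM for midbrain, 995, 1226 and 1367 for striatum and 863, 1129 and 1358 for PFC. The means were 1078 ± 182 (SD, n = 12), 1210.2 ± 129.7 (n = 12) and 1125 ± 160.0 CPM (n = 11), and the striatum was above the midbrain in 10 of 12 mice. Ifngr2, its partner, had values of 231, 319.8 and 369 CPM for midbrain, 254, 265 and 305 for striatum and 252, 282 and 320.4 for PFC. Its means were 305 ± 39.99, 274 ± 18.2 and 281 ± 21.7 CPM, and the striatum was below the midbrain in 9 of 12 mice. From midbrain to striatum the log2 fold change was 0.17 with an SE of 0.080 for Ifngr1 (edgeR adjusted p = 0.236, with the block 0.0703) and -0.15 with an SE of 0.058 for Ifngr2 (adjusted p = 0.104, with the block 0.0557). The regions overlapped for both chains. When each mouse was left out in turn, Ifngr2 passed the threshold without mouse 12 (adjusted p = 0.0447) and in no other case.

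Neither chain of the type I interferon receptor passed the test. Ifnar1 was 61.9 ± 8.97 CPM (SD) for midbrain, 56.1 ± 7.01 for striatum and 55 ± 9.34 for PFC, and its striatum was below its midbrain in 10 of 12 mice (log2 fold change -0.14, adjusted p = 0.38). Ifnar2 was 227 ± 15.7, 229 ± 15.7 and 212 ± 12.1 CPM, and with a coefficient of variation of 7.16% over all samples it was the least variable member. Ifnar2 in the PFC was below its midbrain level in 10 of 11 mice and below its striatum level in 10 of 11. The log2 fold change from midbrain to PFC was -0.092 with an SE of 0.044 (adjusted p = 0.275, with the block 0.103).

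Ratios of the chains of 1 receptor within a sample do not depend on the scaling between samples, and they were compared within mice. In 15 tests (5 receptors and 3 pairs of regions, exact two-sided sign-flip permutation tests adjusted over the 15), 1 passed. In 11 of 12 mice the ratio of Ifngr1 to Ifngr2 rose from midbrain to striatum, by 0.32 ± 0.17 on the log2 scale (SD), with an exact p of 0.000977 and an adjusted p of 0.0146, where 0.000488 is the smallest exact p that 12 mice allow. Per kb of exon, the ratio of Ifngr1 to Ifngr2 was 4.67 ± 0.42 for midbrain, 5.85 ± 0.56 for striatum and 5.30 ± 0.67 for PFC. With any 1 mouse left out the adjusted p stayed between 0.0146 and 0.0293. In mice 1 to 6 alone the difference was 0.28 and in mice 7 to 12 alone 0.37, where the smallest exact p that 6 mice allow is 0.03125 before adjustment over the 15 tests, so these show the size of the difference only. Without the striatum sample of mouse 3 it was 0.30 (adjusted p = 0.0293). For Il6ra over Il6st the striatum exceeded the midbrain in 10 of 12 mice, by 0.32 ± 0.38 (exact p = 0.0161, adjusted p = 0.103), and without the striatum sample of mouse 3 by 0.38 (adjusted p = 0.0366). Without mouse 6 it passed as well (adjusted p = 0.0391), and 3 of the 15 tests passed in all. Without mouse 5, 5 of the 15 passed, namely striatum against midbrain for all receptors but that for IL-6, and striatum against PFC for Il10ra and Il10rb.

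**Figure D5:**
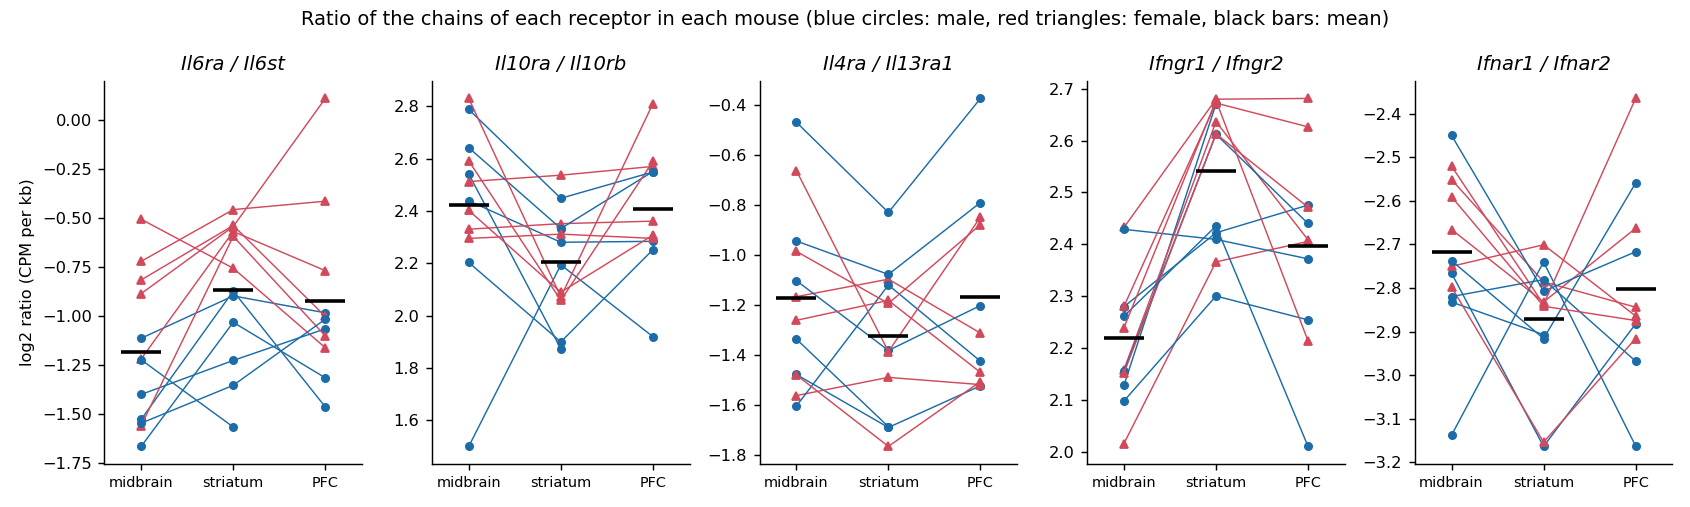
Log2 ratio of the CPM per kb of the chains of each of 5 receptors, with 1 line per mouse over midbrain, striatum and PFC (blue circles male, red triangles female) and black bars for the mean of a region. Ifngr1 over Ifngr2 is higher in the striatum than in the midbrain in 11 of 12 mice; vertical axes differ between panels.

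In level, the more abundant chain was the ligand-binding one for some receptors and not for others. Il10ra exceeded Il10rb per kb in 35 of 35 samples, with a mean ratio of 5.17 ± 0.96 (SD), and Ifngr1 exceeded Ifngr2 in 35 of 35. Il6ra exceeded Il6st in 1 of 35 samples, with a mean ratio of 0.52 ± 0.16. In males this ratio ran from 0.32 to 0.55 and in females from 0.34 to 1.1. Il4ra was below Il13ra1 in 35 of 35 samples (0.44 ± 0.11) and Ifnar1 below Ifnar2, which binds type I interferons with the higher affinity, in 35 of 35 (0.15 ± 0.019).

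The genes whose pattern over the 35 samples was most like that of Il6ra, by Pearson's r of log2 CPM among 8622 genes that reached a mean of 8 CPM, were Soga1 (r = 0.87), Tmem94 (r = 0.87) and Arhgef40 (r = 0.86), the last of which encodes a guanine nucleotide exchange factor. Soga1 was 59.6 ± 13.4 CPM (SD) for midbrain, 101 ± 24.8 for striatum and 71.8 ± 24.0 for PFC. Within regions, after the region means were removed, r was 0.84, 0.82 and 0.83 in the same order. The samples share mice, so these are descriptions.

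Ligands of these receptors were mostly low. Of 24 listed ligands, 11 were in the table and 4 had a mean of at least 8 CPM. These were Osm, which encodes oncostatin M, at 92.2 ± 17.2 CPM (SD, n = 35), Ebi3, a subunit of IL-27 and IL-35, at 54.4 ± 8.42, Clcf1, a ligand acting through gp130, at 46.9 ± 8.19, and Il6 at 9.48 ± 4.06. Il6 was the 1 ligand of 11 with an effect of region, beside 8.89% of all genes. The call for Il6 (edgeR adjusted p = 0.0348) was lost without mouse 1, 2, 4, 6, 8, 9 or 12. Il6 was 11.9 ± 4.72 CPM for midbrain, 9.09 ± 3.30 for striatum and 7.29 ± 2.69 for PFC. It fell by 0.69 on the log2 scale from midbrain to PFC with an SE of 0.19 (adjusted p = 0.0166, and 0.0526 without mouse 8). Thus the mean of Il6 was highest in the midbrain and that of Il6ra in the striatum. Il10, Il4 and Ifnb1 had means of 0.16, 0.079 and 0.58 CPM, and had 3 counts or fewer in 19, 19 and 5 of 35 samples.

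Of 39 other cytokine receptor subunits, 28 were in the table, and 8 had an effect of region, beside 8.89% of all genes. With the mean of other-cell markers as a covariate 5 passed, with mice 1 to 6 only 3, and without mouse 10 or 12 the count was 5. For PFC against midbrain 1 of the 28 was higher and 6 lower, for striatum against midbrain 1 and 4, and for striatum against PFC 1 and 1. Of all genes, 6.52%, 7.45% and 0.570% passed in these pairs. The median log2 fold changes of the 28 were -0.19, -0.26 and 0.15. Csf2ra, which encodes the ligand-binding chain for GM-CSF, was 48.6 ± 10.1 CPM (SD) for midbrain, 38.1 ± 7.39 for striatum and 26.9 ± 6.07 for PFC, and fell by 0.85 from midbrain to PFC on the log2 scale with an SE of 0.12 (edgeR adjusted p = 7.06e-06). Csf2rb, the signalling chain of the same receptor, was highest in the striatum instead, at 49.1 ± 11.8 CPM against 37.5 ± 5.54 in the midbrain (log2 fold change 0.39, SE 0.13, adjusted p = 0.0499). That call was lost without the striatum sample of mouse 3 (adjusted p = 0.0563), with DESeq2's size factors (0.0523), with the mean of other-cell markers (0.468, at a change of 0.24) and with 10 of the 12 mice left out in turn, all but mouse 1 and mouse 6. Il1rl2, the receptor for IL-36, fell from 61.5 ± 11.4 CPM in the midbrain to 45.3 ± 10.5 in the striatum and 39.7 ± 8.84 in the PFC.

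Of 17 negative regulators of JAK and STAT signalling, all in the table, 4 passed for region, beside 8.89% of all genes. For striatum against midbrain 4 passed, all with less in the striatum, beside 7.45% of all genes. The latter count was 1 without mouse 12, 2 without mouse 11, 2 without the striatum sample of mouse 3 and 1 with the mean of other-cell markers, where that for region was also 1. The median log2 fold change of the list for striatum against midbrain was -0.083. Among the genes that passed were Socs4, a suppressor of cytokine signalling, which fell by 0.55 with an SE of 0.13 (adjusted p = 0.00612), Ptpn2, a phosphatase of JAK and STAT proteins, which fell by 0.28 with an SE of 0.078 (adjusted p = 0.0183), and Usp18, an inhibitor of type I interferon signalling, which fell by 1.01 with an SE of 0.32 (adjusted p = 0.0441). The midbrain sample of mouse 5 held 103 CPM of Usp18 where the other 11 held at most 37 CPM, and without mouse 5 its log2 fold change was -0.58 with an SE of 0.26 (adjusted p = 0.190). The call of Usp18 was also lost without mouse 2, 3, 4, 6, 11 or 12, and without the striatum sample of mouse 3 (adjusted p = 0.0699). That of Ptpn2 was lost without mouse 2, 11 or 12, and that of Socs4 held in 12 of 12 fits.

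The interferon response genes that passed the test were lower in striatum and PFC than in the midbrain, and 0 of the 4 interferon receptor chains passed in edgeR or DESeq2 in any pair. At an unadjusted p under 0.05 in edgeR, Ifnar2 passed for PFC against midbrain and for striatum against PFC, and Ifngr1 and Ifngr2 for striatum against midbrain. Of 30 interferon response genes, all in the table, 12 had an effect of region, beside 8.89% of all genes. For PFC against midbrain 10 of the 30 passed, beside 6.52% of all genes, and for striatum against midbrain 11, beside 7.45%. All that passed were lower, and the median log2 fold changes over the list were -0.89 and -0.90. For striatum against PFC the median was -0.019. Ifi27l2a, an interferon-inducible gene, fell from 16.6 ± 5.53 CPM (SD) in midbrain to 6.06 ± 5.15 in striatum and 5.27 ± 3.75 in PFC, and its midbrain was above its striatum in 12 of 12 mice. Gbp2, a GTPase induced by interferon-gamma, fell from 14.8 ± 7.42 to 8.24 ± 2.82 and 8.0 ± 2.87 CPM, again with 12 of 12 mice higher in the midbrain. Irf8, a transcription factor of microglia, was 1073 ± 60.6 CPM for midbrain, 955 ± 80.5 for striatum and 967 ± 65.8 for PFC, and passed the test in both pairs with the midbrain. Its log2 fold change was -0.15 in the PFC, a call lost without mouse 2, 4, 8, 9 or 11 (adjusted p up to 0.105). In the striatum it was -0.17, a call that held in 12 of 12 fits with a mouse left out. Irf7, a regulator of type I interferon genes, was 19.5 ± 13.3, 10.1 ± 6.37 and 9.54 ± 5.83 CPM, and passed for PFC against midbrain (adjusted p = 0.0492, and 0.0883 without mouse 5). Cd274, which encodes the ligand PD-L1, was 24.2 ± 4.81, 18.5 ± 6.08 and 17.5 ± 4.30 CPM, and also passed for PFC against midbrain (adjusted p = 0.0459), a call that held for 4 of the 12 mice left out, as that of Irf7 did for 3.

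In the fit with the block, 15 of the 30 interferon response genes were lower in the PFC and 17 in the striatum than in the midbrain. Of all genes, 8.06% and 11.7% passed in that fit, in either direction. In the fit on region and sex, with its 10 and 11, the counts were 8 and 8 without mouse 5, and 9 and 7 without mouse 11. In mice 1 to 6 alone 4 and 5 passed, beside 1.82% and 1.02% of all genes. In mice 7 to 12 alone 2 and 0 passed, beside 4.34% and 5.69%. Of 20 targets of IL-6, IL-10 and IL-4 signalling 16 were in the table, and 2 of them had an effect of region, beside 8.89% of all genes. The median log2 fold changes over the list were -0.12 for PFC against midbrain and -0.18 for striatum against midbrain.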

How the data were processed

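RNA from sorted microglia was sequenced in 35 samples of 12 mice. According to the study's methods, the authors prepared libraries with SMART-Seq HT and Nextera XT, checked paired reads with FastQC, trimmed them with Trimmomatic, aligned them to GRCm38 with HISAT2 and kept genes that reached a minimum CPM in a subgroup. The values used are the raw counts per Ensembl gene that the authors deposited, without normalization. The counting tool, annotation release and handling of strand are not given in the sources used here. Regions and sexes were taken from the labels. Totals ran from 37680501 to 54131421 counts per sample, and 3 counts (0.0561 to 0.0789 CPM) were taken as a floor.

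The members, lists, tests and alternatives were chosen with earlier results of these data known. The list genes named are those with an adjusted p under 0.05 for region and a mean of at least 8 CPM, at most 6 per list, and the 3 genes most correlated with a member called for region. Where a gene or sample was singled out otherwise, it was chosen after its values were seen. The list of JAK kinases and STAT factors is not reported here.

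Fits used R 4.3.3 and edgeR 4.0.16 (TMM, robust quasi-likelihood F-test, region and sex, Benjamini-Hochberg over 21236 genes, called at an adjusted p under 0.05). Log2 CPM had a prior count of 2. Region by sex used a model with 6 groups. Python 3.11.15, pandas 2.3.3, numpy 2.4.6 and matplotlib 3.10.9 made the exact tests and plots, with symbols, positions and exon lengths from GENCODE M21. Alternatives were the mouse number as a block, DESeq2 1.42.0, its size factors in edgeR, filterByExpr, the striatum sample of mouse 3 left out, mice 1 to 6 and 7 to 12 apart, an index of markers of other brain cells as a covariate, counts summed per mouse, cut-offs like the study's, and each mouse left out. A covariate for mice 1 to 6 against 7 to 12 and the permutation test over means per mouse were added after the data were seen.

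The mouse number in the titles ties samples to an animal. For 34 pairs of samples that share a mouse, r between deviations from group means averaged 0.22 (27 above 0.1), and for 170 pairs that do not, -0.043. No pair of samples within a group came near sampling noise. On simulated data for PFC against midbrain, 189 of 200 genes changed by 1 on the log2 scale, among 21236, were called, with 17 false calls. Smaller changes, such as those of the members, were not simulated.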

Additional observations from a re-analysis of the deposited data

Results flagged for a closer look

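In 60 groups (10 members in 6 combinations of region and sex), 6 held a sample far from the others by Dixon's test, where chance gives about 3. Il6ra in the midbrain of female mouse 10 was 115 CPM, and the next female had 84.6. Il6st in the PFC of female mouse 8 was 254 CPM, and the next had 169. Ifnar1 in the same sample was 72.5 CPM, and the next had 54.1. Il10rb in the midbrain of male mouse 5 was 228 CPM, and the next had 170.2. Il13ra1 in the striatum of female mouse 4 was 301 CPM, below the 332 of the next. Ifngr1 in the PFC of male mouse 11 was 863 CPM, below the 1100.0 of the next.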

How the results depend on the processing

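The number of members called for region, 1 in the fit on region and sex, was 2 with the mouse as a replicate block and 2 with a covariate for mice 1 to 6 against 7 to 12, and 0 with mice 1 to 6 only, with mice 7 to 12 only (0) and with the index of other brain cells (0). For PFC against midbrain it went from 0 to 1 with the block and 1 with that covariate. For striatum against midbrain it went from 1 to 0 in mice 1 to 6 alone and 0 with the index. For striatum against PFC it went from 0 to 2 with the block, 2 with the covariate and 1 under the study's cut-offs. For sex it went from 1 to 0 with mice 1 to 6 only, with mice 7 to 12 only (0) and with counts summed per mouse (0). The number of chain ratios called went from 1 to 2 without the striatum sample of mouse 3, and to 0 with mice 1 to 6 only and with mice 7 to 12 only (0), where 6 mice allow no exact p under 0.03125 before adjustment, so these counts say nothing of stability. With each mouse left out in turn, the counts ran from 0 to 2 for region, 0 to 1 for striatum against midbrain, 0 to 1 for sex and 1 to 5 for the ratios, and stayed at 0 for the other tests. Fits of mice 1 to 6 or 7 to 12 alone hold fewer samples, and for striatum against midbrain they called 1.02% and 5.69% of all genes. The cause of a change in these counts was not tested for any alternative. Over all genes, the block raised the calls for region from 1888 to 2977, for striatum against midbrain from 1583 to 2476 and for striatum against PFC from 121 to 614. DESeq2 called 342 genes for the last and 195 for sex, where edgeR called 72. Of the 30 interferon response genes DESeq2 called 19 for region, where edgeR called 12, beside 12.1% and 8.89% of all genes. DESeq2, its size factors and filterByExpr left each count of members as it was. No fold change or ratio past the threshold changed sign. With the paired samples blocked, members other than Il6ra and Il6st kept their side of the threshold. The mouse numbers are not said to be batches.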

Other observations

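Mean levels of several members were higher in mice 7 to 12 than in mice 1 to 6, a split of the numbering for which the labels give no reason, noticed in the data and not tested here. Il4ra was 199 ± 20.5 CPM (SD) in the 17 samples of mice 1 to 6 and 265 ± 45.0 in the 18 of mice 7 to 12. Il6st was 207 ± 48.4 and 258 ± 60.6 CPM, Il6ra 81.0 ± 20.4 and 99.9 ± 17.1, Ifnar1 52.7 ± 6.81 and 62.6 ± 7.75, and Ifnar2 214 ± 12.2 and 231 ± 15.2 CPM, in the same order. The other 5 members differed by less than 1 SD of either set. Il6st, Il6ra, Il4ra and Ifnar1 have the longest exons of the 10 members, at 11099, 8642, 6002 and 5940 bases in total. Ifnar2 has 3329 bases, and the 5 that differed less have 2847 to 3808. Whether the split goes with exon length was not tested.

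The midbrain sample of mouse 5 held 103 CPM of Usp18, where the other 11 midbrain samples ran from 8.77 to 37 CPM, and 58.3 CPM of Irf7, where the others ran from 8.73 to 29.6. In the striatum and PFC of that mouse Usp18 was 11.9 and 18.7 CPM. In the same midbrain sample Il10rb, Ifngr1 and Ifngr2 had their highest midbrain values (228, 1502 and 369 CPM). Il10ra, Il6ra, Il4ra and Ifnar1 had their lowest midbrain values there (593, 61.0, 187 and 44.2 CPM). Whether these belong together was not tested.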
